A study of Mus musculus with 22 samples.

Results

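Calmodulin is the small protein that turns a rise in cytosolic calcium into the activity of other proteins, and it binds calcium before it binds its targets. Among these targets are the calcium/calmodulin-dependent kinases (CaMKs). The genes described here are 9 members of this pathway, selected by symbol: the calmodulin genes Calm2 and Calm3, the upstream kinases Camkk1 and Camkk2, the CaMKI genes Camk1 and Camk1d, and the CaMKII genes Camk2b, Camk2d and Camk2g. They are 9 of the 23453 gene symbols for which the study counted reads.

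The study imaged calcium with the dye Fluo-4 in primary cortical astrocyte cultures of C57BL/6 mouse pups aged between 0 and 1 day. EtOH was applied briefly, and for sequencing the paper chose the highest dose it had tested. Single cells were drawn into a pipette once their calcium signal had been classified. The paper describes cells collected at different times after EtOH, and the labels do not give the time of a cell. The 22 cells fall into 4 response types, with 6 S-type cells (a slow rise and decay), 6 T-type cells (a sharp, transient rise), 5 M-type cells (a mixed, larger signal) and 5 nonresponsive cells (NR), and no untreated cell is among them. All cells came from cultures that had been shaken and treated with cytosine arabinoside, which kills dividing cells such as microglia, and that were without serum for 24 hours before imaging. The RNA of each cell was amplified in rounds of antisense RNA synthesis, sequenced, and counted as exonic reads per gene.

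Since no label ties a cell to its animal or culture, a response type was treated as a single sample. No test between types and no error between types could therefore be given, and a difference is described by its size, by the values of the single cells, and by its range when each cell was left out in turn. A value per cell is a normalized count, the reads of a gene divided by a size factor (the median of ratios) of that cell, and the level of a type is the mean over its cells. Intervals in brackets are exact 95% intervals for counting error only, and they do not cover the spread between cells. Total counts ran from 2937786 to 22131076 per cell, and the cell with the fewest reads was the T-type cell J163_18. Another T-type cell, J162_16, stood apart, with 12564138 reads but only 6319 genes with a read, the fewest of all 22 cells, and a size factor of 0.276, so that its normalized counts are high for its CPM (reads scaled to a common library total). With mean CPM in place of size factors the median log2 ratio of all genes against NR was -0.45 instead of -0.05 in T-type, so ratios of this type are given under both scalings where the difference matters. All 10 astrocyte markers had reads in every type, with summed values of 1051 to 8972 CPM per cell. The 8 microglia markers summed to at most 6.94 CPM in S-, T- and M-type cells and to 0.792 to 46.8 CPM in NR cells. Markers of other lineages were read at higher sums. The 5 endothelium markers summed to at most 200 CPM, in the T-type cell J165_23, and the neuron markers are given with Camk2b below. Of the endothelium markers Kdr alone reached 200 CPM, and Cldn5 and Cdh5 had 0 reads. The 7 markers of mural cells and fibroblasts summed to 176.5 to 7410 CPM (S-type), 95.4 to 4710 CPM (T-type), 31.7 to 2270 CPM (M-type) and 211 to 1439 CPM (NR). Of these, Acta2 alone had a median of 914 CPM over the 22 cells and reached 7389 CPM. No other marker of that list exceeded 828 CPM in any cell, and Rgs5 had 0 reads. The 8 markers of the oligodendrocyte lineage summed to 32.2 to 897 CPM (S-type), 196 to 3329 CPM (T-type), 139 to 2231 CPM (M-type) and 207 to 484 CPM (NR). Olig1 alone had a median of 387 CPM over the 22 cells and reached 3202 CPM. No other marker of this list exceeded 240 CPM in any cell, and Sox10 had 0 reads.

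In most CaMKs the resting enzyme is held inactive, and binding of calcium-loaded calmodulin opens it. CaMKK1 and CaMKK2 then phosphorylate CaMKI, and CaMKK2 also phosphorylates the energy sensor AMPK. CaMKII forms large multi-subunit rings that phosphorylate themselves and so keep some activity after calcium has fallen. In astrocytes, calcium signals are the main form of excitability, which is why the RNA of the proteins that read them is of interest in cells sorted by calcium response.

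The calmodulin genes differ in DNA but not in protein, and only reads that cover a differing base can tell them apart within the coding part. Below are the first 120 bases of both coding sequences from GENCODE vM21 (build GRCm38), with the 18 bases that differ between them in capitals.
Calm2: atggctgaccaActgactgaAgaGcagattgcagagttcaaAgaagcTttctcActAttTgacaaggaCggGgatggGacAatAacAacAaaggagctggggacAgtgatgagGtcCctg
Calm3: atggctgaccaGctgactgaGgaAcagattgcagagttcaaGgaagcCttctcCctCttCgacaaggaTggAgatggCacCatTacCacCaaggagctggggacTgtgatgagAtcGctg
Over the full 447 coding bases, 78 bases differed between Calm2 and Calm3, and the longest stretch without a difference was 17 bases. Of the 149 codons 76 differed, 0 of them in the amino acid encoded, and 74 of the differences lay at the last codon position. Calm2 lies at chr17:87433412-87446935 and Calm3 at chr7:16915379-16924114, both on the minus strand of GRCm38.

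The CaMKII genes are close relatives whose products assemble into the same rings. Their coding bases 847 to 939 are shown because they hold the threonine codon, number 287 (in capitals), that the kinase phosphorylates on itself and the calmodulin-binding stretch that follows it.
Camk2b: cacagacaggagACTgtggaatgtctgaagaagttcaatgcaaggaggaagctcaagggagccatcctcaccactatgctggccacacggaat
Camk2d: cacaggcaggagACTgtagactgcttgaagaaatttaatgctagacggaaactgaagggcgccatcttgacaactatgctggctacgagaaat
Camk2g: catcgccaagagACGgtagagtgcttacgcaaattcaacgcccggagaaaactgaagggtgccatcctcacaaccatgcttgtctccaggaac
In this window Camk2b and Camk2d differed at 20 of 93 bases and at 1 of 31 encoded residues, Camk2b and Camk2g at 29 bases and 3 residues, and Camk2d and Camk2g at 28 bases and 4 residues. Over the translated proteins Camk2b and Camk2g were 87.0% identical, Camk2b and Camk2d 86.0%, and Camk2d and Camk2g 85.4%. The CaMKI proteins were 74.1% identical to each other and the CaMKK proteins 62.6%. Camk2b lies at chr11:5969644-6066362, Camk2d at chr3:126596302-126846326 and Camk2g at chr14:20734875-20794088.

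All 9 genes had a read in at least 5 cells, the limit for the comparisons between types, which 12719 genes passed. Calm2, Calm3, Camk1, Camk1d, Camk2d and Camkk2 had a read in every one of the 22 cells, that is 6 of 9 genes against 28.9% of all genes tested. The mean level of Calm2 over all cells lay above that of 99.4% of the genes tested, Calm3 above 89.3%, Camk2d above 84.4% and Camk1d above 82.7%. Camkk1, Camk2b and Camk1 were the lowest, above 46.3%, 26.97% and 23.01%. Per kilobase of transcript, so that genes can be compared with each other, the level was 15354 for Calm2 and 1005 for Calm3, between 197 and 278 for Camk1d, Camk2g, Camkk2 and Camk2d, and 60.3, 32.4 and 16.4 for Camkk1, Camk1 and Camk2b. Calmodulin RNA was thus the most abundant of the set by a wide margin, with kinases at lower levels.

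**Figure D1:**
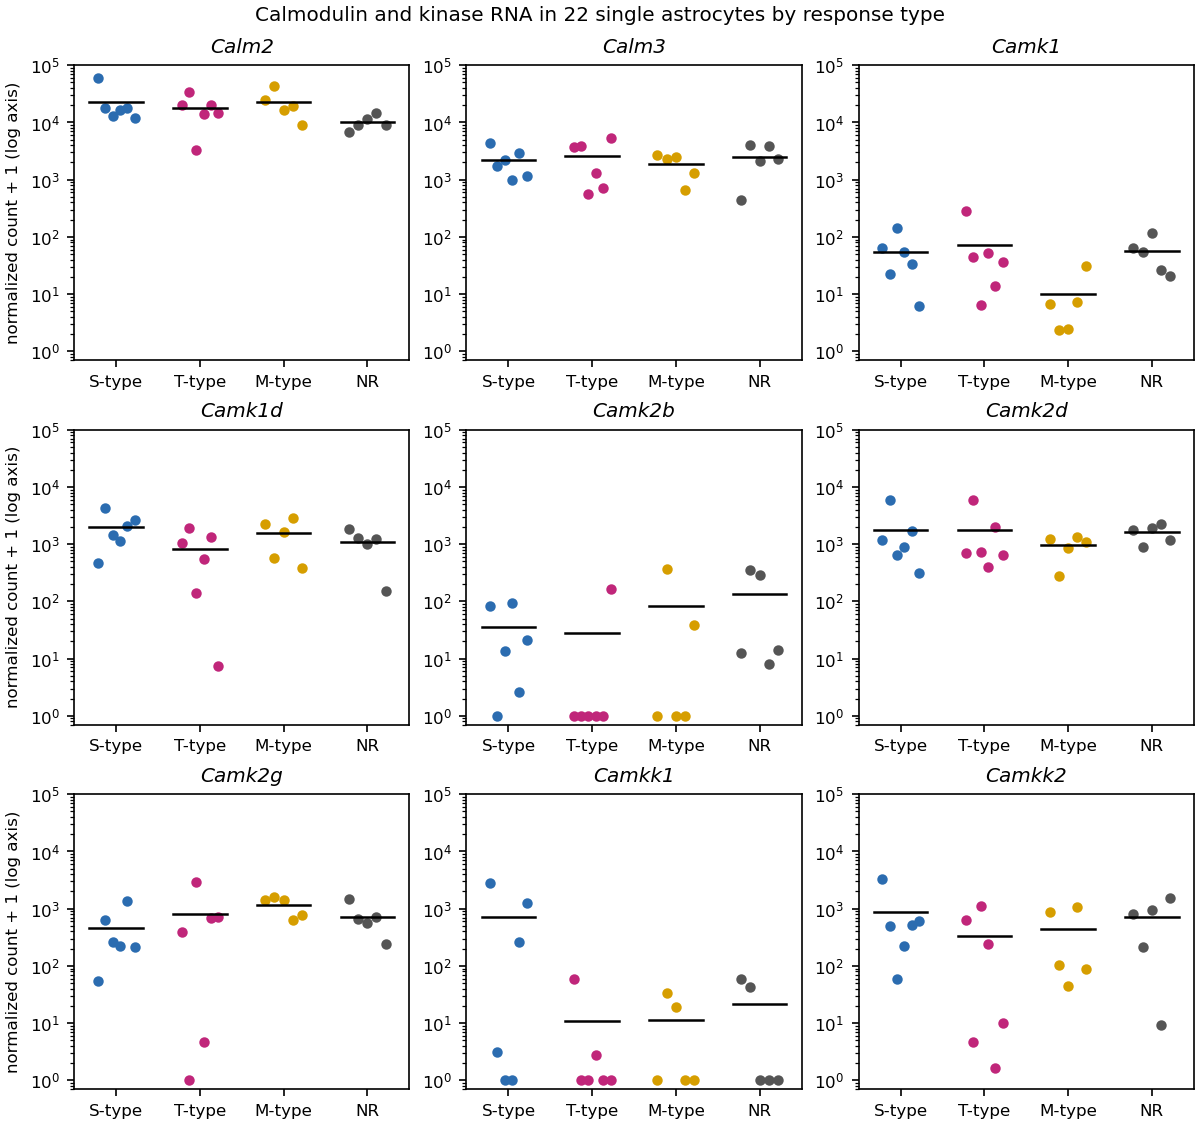
Normalized count plus 1 (log axis) of the 9 genes in single astrocytes, with 1 point per cell, cells grouped by response type and a line at the mean of the type. The 5 NR cells lie between 6727 and 14710.3 for Calm2, whereas Camk2b has 5 T-type points at 0 reads (drawn at 1) and Camkk1 has 12 cells at 0.

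A ratio of type levels past 2-fold is common in single cells. The study used the same fold limit, but only together with a limit on the FDR of its Wald test, which is not applied here. In none of the 4 comparisons was the share of the 9 genes past it larger than that of all genes. For T-type versus S-type 58.2% of the 12719 genes tested were past 2-fold in either direction and 32.2% were past it on the lower side. Of the 9 genes 3 were past it, all lower in T-type (Camk1d, Camkk1 and Camkk2) and 0 higher, where 26.0% of all genes were higher. For T-type versus NR 3 of 9 were lower (Camk2b, Camkk1 and Camkk2) and 0 higher, against 32.4% lower and 28.6% higher over all genes, 61.0% together. For S-type versus NR 2 of 9 were higher (Calm2 and Camkk1) and 1 lower (Camk2b), against 25.1% and 22.4%, 47.5% together. For M-type versus NR 1 was higher (Calm2) and 1 lower (Camk1), against 19.8% and 28.1%, 47.9% together.

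The median log2 ratio of the 9 genes was -0.35 for T-type versus S-type, where all genes tested had a median of -0.07. Against NR the median of the 9 genes was 0.02 in T-type, 0.14 in S-type and -0.71 in M-type, where all genes had -0.05, 0.03 and -0.20. In each of the 4 comparisons 0 of the 9 genes had cells of both types that did not overlap, which 0.771%, 0.991%, 0.409% and 0.598% of all genes had. The comparisons against NR share the 5 NR cells.

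**Figure D2:**
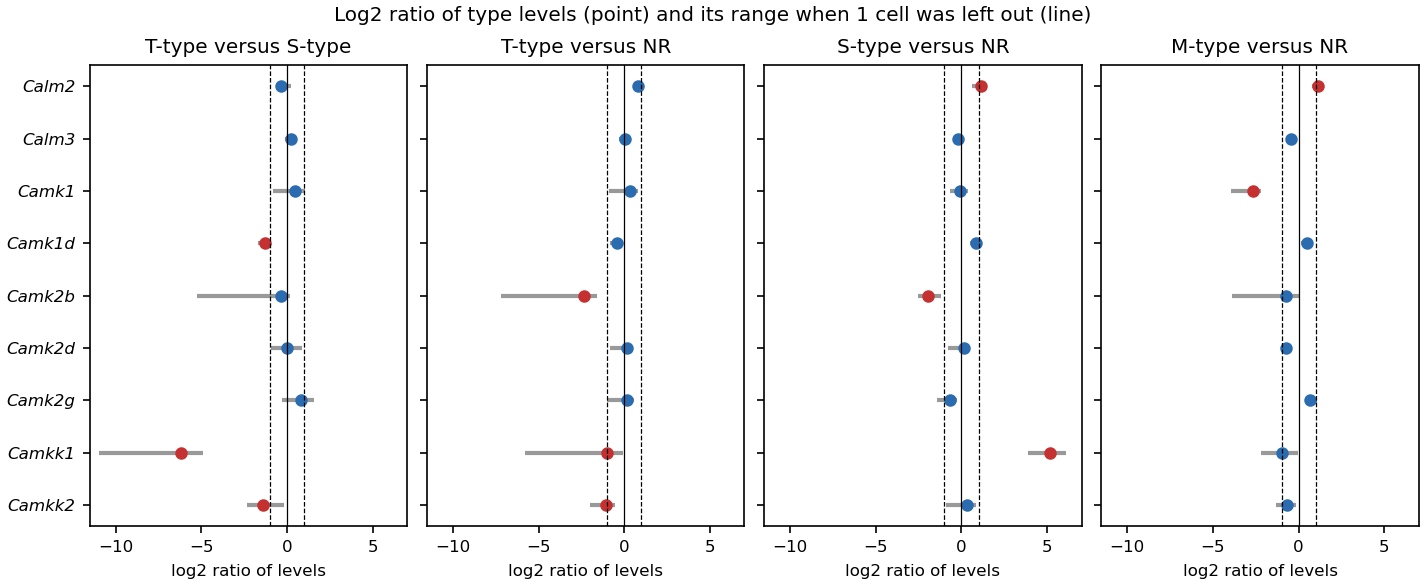
Log2 ratio of type levels for the 9 genes in 4 comparisons (points, red where past 2-fold and blue otherwise), with a grey line over the range obtained when each cell was left out in turn and dashed lines at 2-fold. The Camkk1 point lies at -6.19 for T-type versus S-type and at 5.16 for S-type versus NR, and the long lines to the left (Camkk1 and Camk2b) come from leaving out the cell that held nearly all T- or M-type reads, a line that ends at the floor of 3 reads for Camk2b in T-type.

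Calm2 was lowest in NR. The 5 NR cells had normalized counts of 6727, 9072, 11299, 14710.3 and 9002, and the 5 M-type cells had 25044, 43241, 16585, 19074 and 8984. In S-type cells Calm2 ran from 11807 over a median of 17103 to 59487, and in T-type cells from 3289 over a median of 17381 to 34188. Of the 17 responding cells 2, J163_18 (T-type) and J176_25 (M-type), lay below the NR median of 9072, so the types overlapped. NR cells also had the lowest median sum of mural and fibroblast markers, 364 CPM, where the other types had medians of 1323 (S-type), 1668 (T-type) and 1431 CPM (M-type), and the part of such RNA in the Calm2 values was not tested.

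The type levels of Calm2 were 22754 in S-type, 22586 in M-type, 17796 in T-type and 10162 in NR. Against NR the log2 ratio was 1.16 [1.15 to 1.18] for S-type, 1.15 [1.14 to 1.16] for M-type and 0.81 [0.79 to 0.82] for T-type, and these 3 ratios share the same NR cells. Both ratios past 2-fold rested in part on 1 cell: S-type versus NR fell to 0.60 without J150_3, and M-type versus NR to 0.78 without J173_25. When any other single cell was left out, both stayed past 2-fold. With the median over cells the S-type ratio was 0.91, inside the limit. The T-type ratio ranged from 0.51 without J162_16 to 1.03 without J163_18, and it was 0.19 with mean CPM and 0.42 with pooled CPM. The order of the 3 responding types was not resolved, since T-type versus S-type was -0.35, became 0.21 without J150_3 and was -0.88 with mean CPM. J150_3 also had the highest sum of G2/M markers of all 22 cells, 9744 CPM, where 17 cells had at most 548 CPM, and the part of cell division in its Calm2 value was not tested.

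Calm3 stayed within 2-fold between types. Its levels were 2565 in T-type, 2525 in NR, 2210.2 in S-type and 1875 in M-type, and all 4 log2 ratios between types lay between -0.43 and 0.21, or between -0.70 and 0.52 when a cell was left out. With mean CPM the T-type ratios were -0.29 against S-type and -0.53 against NR. The 5 NR cells had 449, 3963, 2086, 3812 and 2317, and the 5 M-type cells had 2683, 2268, 2449.6, 655 and 1321. The S-type cells ran from 989 to 4295 with a median of 1965, and T-type cells from 562 to 5249 with a median of 2499. Low and high cells occurred in each type. Calm3, compared with the 3670 genes that were read in all cells, had one of the smaller coefficients of variation over cells, 0.596, with 7.22% of those genes below it, and Calm2 had 0.689, with 15.4% below it. The median of those genes was 1.00.

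The balance between the calmodulin genes can be read within a cell, without any size factor. Calm2 made up a median of 88.5% of the reads of Calm2 and Calm3 together, from 69.6% [68.997 to 70.19] in the NR cell J183_1 to 96.7% [96.5 to 96.9] in the M-type cell J175_18. The median was 91.1% in S-type, 90.3% in M-type, 87.6% in T-type and 79.5% in NR. In single NR cells the share was 93.7% (J182_2), 69.6% (J183_1), 84.4% (J185_4), 79.4% (J186_5) and 79.5% (J187_6). The 11 S- and M-type cells all lay between 85.3% and 96.7%, above 4 of the 5 NR cells. T-type cells covered nearly the whole range, from 73.8% in J166_25 to 96.5% in J165_23. Calm2 reads outnumbered Calm3 reads 2.29 to 29.1 times. These shares are of the 2 genes described and not of all calmodulin RNA.

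**Figure D3:**
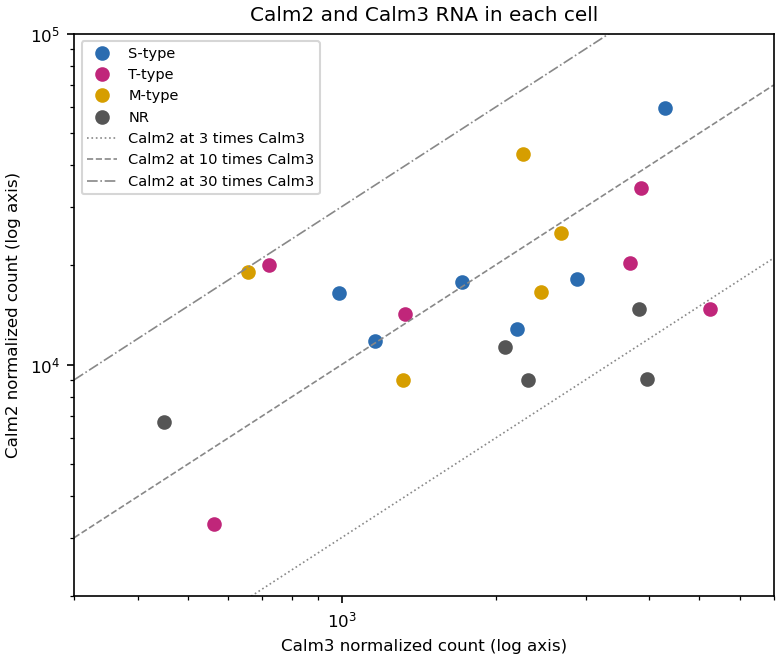
Calm2 against Calm3 normalized count (both log axes), with 1 point per cell coloured by response type and lines at Calm2 equal to 3, 10 and 30 times Calm3. Of the 5 NR cells 4 lie below the line at 10 times, as do some cells of each other type. The M-type cell J175_18 and the T-type cell J165_23 lie nearest the highest line, at ratios of 29.1 and 27.7.

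Over the 22 cells Calm2 and Calm3 had a Spearman rho of 0.41, the highest of any pair among the 9 genes. Among the genes whose normalized count was ranked most like Calm2 over the cells, of 3669 genes compared, were Hnrnpab (an RNA-binding protein, rho 0.79) and Tars (threonyl-tRNA synthetase, 0.77). The points share a library per cell, and the rho of Calm2 with the total count was 0.02. Between kinases rho lay between -0.44 for Camk1 with Camk2g and 0.39 for Camk1d with Camk2d.

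The upstream kinases CaMKK1 and CaMKK2 switch on CaMKI, and Camkk1 had the largest ratios between types of the 9 genes. Camkk1, at chr11:73019008-73042073, had a read in 10 of 22 cells. In S-type cells its normalized counts were 2839.9 in J150_3, 1232 in J156_16, 258 in J155_9, 2.17 in J151_5 and 0 in J153_6 and J154_8. In T-type cells they were 57.7 in J161_9, 1.82 in J164_19 and 0 in the other 4. M-type cells had 0, 32.9, 17.8, 0 and 0, and NR cells 58.9, 42.0, 0, 0 and 0. High Camkk1 counts were found in 3 S-type cells, and the other 3 S-type cells lay within the range of the remaining types.

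The Camkk1 level was 722 in S-type, 20.2 in NR, 10.1 in M-type and 9.92 in T-type. The log2 ratio was -6.19 [-6.66 to -5.75] for T-type versus S-type, -4.91 without J150_3, and 5.16 [4.94 to 5.39] for S-type versus NR, 3.89 without J150_3. For T-type versus NR it was -1.02 [-1.55 to -0.53], just past the limit, and it dropped inside 2-fold without J182_2 (-0.08), J183_1 (-0.57) or any T-type cell other than J161_9 (-0.81 to -0.76). M-type versus NR was -0.99, with 85 reads in M-type and 171 in NR. When J161_9 was left out, 1 Camkk1 read remained in T-type. After each cell was thinned to 2937786 reads, the number of cells with a Camkk1 read was 3 of 6 S-type, 2 of 6 T-type, 2 of 5 M-type and 2 of 5 NR, against 4, 2, 2 and 2 at full depth.

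Camkk2, at chr5:122731170-122779409, was more widespread, with a read in every cell, but its cells covered a very wide range. In NR cells it had 809, 209.9, 939, 8.37 and 1564 normalized counts, and in M-type cells 879, 101, 44.1, 1053 and 86.8. S-type cells ran from 57.9 to 3359 with a median of 511. T-type cells ran from 0.648 to 1124 with a median of 125, and J162_16, J165_23 and J166_25 were below 10. Each type held a cell at 57.9 or lower and a cell at 879 or higher.

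The level of Camkk2 was 880.1 in S-type, 706 in NR, 433 in M-type and 334 in T-type. T-type was lower than S-type by a log2 ratio of -1.40 [-1.51 to -1.29], which was -0.20 without J150_3. Against NR, T-type gave -1.08 [-1.19 to -0.97], and this was -2.004 without J163_18, which supplied 56.1% of the T-type sum, and -0.56 without J187_6. It was also inside 2-fold without J185_4 (-0.96), J162_16, J165_23 or J166_25 (all -0.82). With mean CPM T-type stood at -1.74 against S-type and at -1.44 against NR. S-type versus NR was 0.32 and became -0.88 without J150_3, and M-type versus NR was -0.71. The summed normalized count of both CaMKK genes stayed under 10 in 3 T-type cells, J162_16 (3.63), J165_23 (0.648) and J166_25 (8.97), and in the NR cell J186_5 (8.37). It was 57.9 or more in the other 18 cells.

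CaMKI is the kinase that CaMKK activates. Camk1d, at chr2:5293457-5714515, had the second highest mean normalized count of the kinases in the set, after Camk2d. It had normalized counts of 1851, 1299, 1020.4, 1228 and 150.2 in NR cells and 2261, 570.0, 1614, 2867 and 382 in M-type cells. S-type cells ran from 476 to 4238 with a median of 1757, and T-type cells from 6.40 to 1886 with a median of 806. The lowest cells were J166_25 (6.40) and J163_18 (136), both T-type. The level was 2004 in S-type, 1539 in M-type, 1109.7 in NR and 825 in T-type. T-type versus S-type gave a log2 ratio of -1.28 [-1.33 to -1.23], which stayed past 2-fold when any cell was left out except J151_5 (-0.92). Against NR the ratios were 0.85 for S-type, 0.47 for M-type and -0.43 for T-type. The T-type ratio against NR depended on the scaling, since it was -1.25 with mean CPM and -1.05 with pooled CPM, both past 2-fold.

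Camk1, at chr6:113334124-113343984, was far less read, with 5.63, 1.40, 1.41, 6.23 and 29.8 normalized counts in M-type cells and 63.7, 53.9, 116, 25.7 and 19.5 in NR cells. S-type cells ran from 5.19 to 141 with a median of 42.8, and T-type cells from 5.45 to 279 with a median of 39.7. Of the M-type cells 4 lay below every NR cell, and J176_25 lay within the NR range. M-type versus NR gave a log2 ratio of -2.65 [-2.99 to -2.33], from -3.93 without J176_25 to -2.19 without J185_4. The M-type level rested on 95 reads in all. T-type and S-type stayed within 2-fold of NR, at 0.35 (-0.91 without J161_9) and -0.09. With mean CPM the T-type ratio against NR was -0.41. The gene Ogg1 overlaps Camk1 on the opposite strand and had 1402 reads in the 22 cells, and whether the counting used the strand is not given in the sources used here, so reads of both genes may not be fully separated.

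Among the CaMKII genes, Camk2d had the highest level in S-type, T-type and NR, and Camk2g in M-type. Camk2d had 1207, 282, 842, 1355 and 1089.6 normalized counts in M-type cells and 1764, 905, 1917, 2240.4 and 1168 in NR cells. In S-type cells it ran from 314 to 5841 with a median of 1037, and in T-type cells from 394 to 5988 with a median of 719. The highest normalized counts were those of J151_5 (S-type) and J162_16 (T-type). By CPM J151_5 remained highest of all cells, at 378, whereas J162_16 had 131 CPM, below the T-type cell J165_23 at 161.5 CPM. The log2 ratio of T-type versus S-type was -0.01, and against NR the ratios were 0.13 in T-type, 0.14 in S-type and -0.74 in M-type, none of them past 2-fold. Without J151_5 the S-type ratio against NR became -0.76, and without J162_16 the T-type ratio became -0.83. With mean CPM T-type stood at -0.81 against S-type and at -0.83 against NR, and with the median over cells the ratio against NR was -1.29. J151_5 also had the highest sum of S phase markers, 7644 CPM, while J162_16 had the lowest sum that any T-type cell showed for these markers, 83.1 CPM.

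Camk2g had 1403, 1569.9, 1429, 638 and 773 normalized counts in M-type cells and 1455, 657, 563, 715 and 245 in NR cells. S-type cells ran from 53.3 to 1344 with a median of 242, and T-type cells from 0 to 2973 with a median of 546. The only cell of the 22 without a Camk2g read was J162_16, the T-type cell with the highest normalized count of Camk2d. The level was 1163 in M-type, 799 in T-type, 727 in NR and 453 in S-type, with log2 ratios of 0.82 for T-type versus S-type and, against NR, 0.68 in M-type, 0.14 in T-type and -0.68 in S-type. With mean CPM the T-type ratios were 0.40 against S-type and -0.23 against NR. Single cells moved these values, since T-type versus S-type was -0.31 without J163_18 and M-type versus NR was 1.09 without J182_2. The genes ranked most like Camk2d over the cells were Cobll1 (rho 0.70), Eme1 (a DNA repair nuclease subunit, 0.69) and Nsun2 (an RNA methyltransferase, 0.66), and rho with the total count was 0.05.

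Camk2b, the isoform best known from neurons, was present at a low level in part of the cells. It had a read in 5 of 5 NR cells, at 11.5, 348, 293, 7.18 and 13.0 normalized counts, and in 5 of 6 S-type cells, at most at 92.0. It had a read in 2 of 5 M-type cells, J173_25 (372) and J176_25 (37.2), and in 1 of 6 T-type cells, J166_25 (160.8). At equal depth the cells with a read were 4 of 5 NR, 4 of 6 S-type, 2 of 5 M-type and 1 of 6 T-type. Against NR the log2 ratio was -2.33 [-2.53 to -2.13] for T-type and -1.95 [-2.16 to -1.75] for S-type, and without J183_1 these became -1.60 and -1.22. Without J166_25 no Camk2b read was left in T-type, and a floor of 3 reads gave a bound of -7.19. M-type versus NR was -0.72, and it was -3.86 without J173_25 and 0.01 without J183_1.

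The 4 cells with the most Camk2b reads came from 3 types, and the sums of the 8 neuron markers in them were 504 CPM (J173_25), 336 CPM (J166_25), 49.3 CPM (J183_1) and 27.6 CPM (J185_4). Over all cells these sums ran from 0.617 to 2048 CPM in S-type, 0.415 to 336 CPM in T-type, 0.0507 to 504 CPM in M-type and 27.6 to 419.8 CPM in NR, with reads of 6, 6, 5 and 7 of the 8 markers. The highest sum, in the S-type cell J151_5, was nearly all from 1 gene, Stmn2, at 2047.8 CPM. This gene had reads in 20 of 22 cells, and no other marker of the list exceeded 45.6 CPM in any cell. Slc17a7, the vesicular glutamate transporter that defines many cortical excitatory neurons, had 0 reads in every cell, and Rbfox3, a marker of mature neurons, had reads in 5 cells. The part of neuronal RNA in the Camk2b values was not tested.

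The mix of CaMKII genes differed between cells more than the type levels show. Per transcript length, Camk2d was the largest of the 3 in 12 of 22 cells and Camk2g in the other 10. Camk2g led in 4 of 5 M-type cells, 2 of 6 S-type cells, 2 of 6 T-type cells and 2 of 5 NR cells. By reads alone, without division by length, Camk2d led in 17 cells and Camk2g in 5, of which 3 were M-type and 2 T-type. Per transcript length again, the Camk2g share of the 3 genes in M-type cells was 63.4% (J172_23), 74.7% (J173_25), 71.7% (J174_13), 41.3% (J175_18) and 50.3% (J176_25), and in NR cells 55.0%, 41.5%, 26.6%, 32.2% and 23.5%. S-type cells ran from 5.72% to 54.3% with a median of 31.04%. T-type cells stood at both ends: Camk2d made up 100.0% in J162_16 and 98.6% in J164_19, and Camk2g made up 85.7% in J163_18, the cell with the fewest reads. Camk2b reached 20.2% in J183_1 and 16.3% in J173_25.

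**Figure D4:**
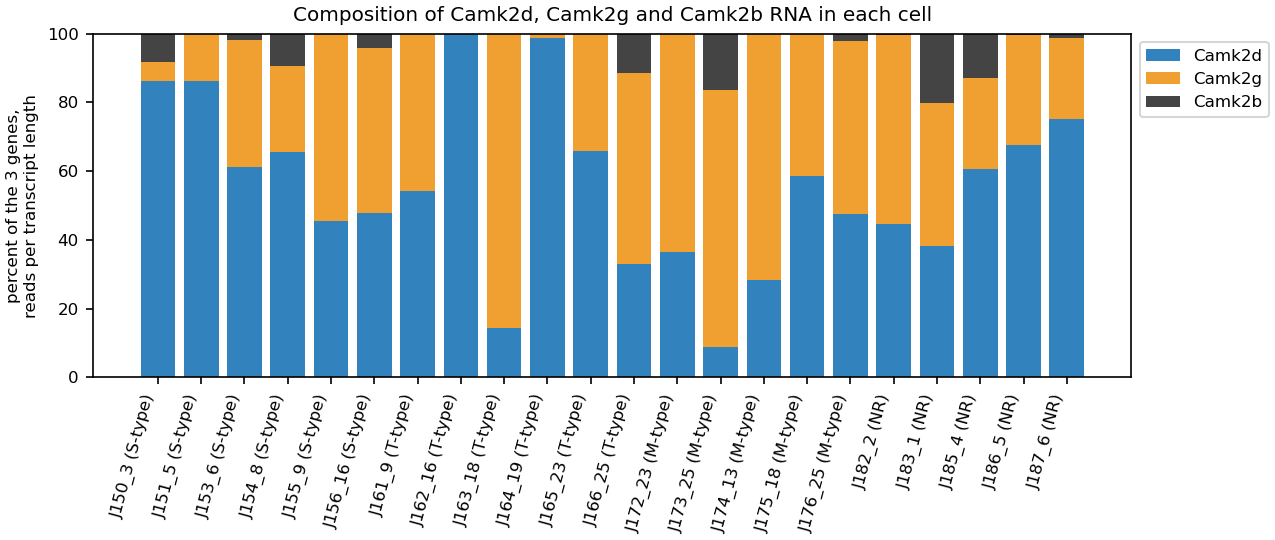
Share of Camk2d, Camk2g and Camk2b (percent of the 3 genes, reads divided by transcript length) in each of the 22 cells, stacked to 100%, with the cell name and its response type on the x axis. Camk2g is the largest part in 4 of the 5 M-type bars, and the T-type bars range from 100.0% Camk2d to 85.7% Camk2g.

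Counted over the 7 kinase genes, a cell had reads of 4 to 7 of them. The lowest number, 4, was in J162_16, and 5 kinases were read in J163_18, J165_23, J172_23 and J175_18. The 11 S-type and NR cells each had 6 or 7. At equal depth the number was 3 in J162_16 and 4 in J165_23, and it was 5 in the S-type cell J151_5 and the NR cell J187_6.

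Proteins that hold or compete for calmodulin form a second layer of control, and 5 of the 6 such genes listed passed the limit of 5 cells (Nrgn had 0 reads). T-type was higher than NR past 2-fold in 4 of these 5 and lower in 1, where 28.6% and 32.4% of all genes tested were, and higher than S-type in 3 and lower in 1, where 26.0% and 32.2% were. Counts for this list and those that follow are over few genes, and the shares of all genes given for each comparison above are their background. Counts and ratios of these lists use size factors only, and how far the T-type values change with CPM was not computed. Marcks, a membrane protein that binds calmodulin until it is phosphorylated, had a level of 29589 in T-type, 18003 in S-type, 14854 in M-type and 9768 in NR. With size factors T-type versus NR gave a log2 ratio of 1.60, at least 1.08 whichever cell was left out. J163_18, the cell with the fewest reads, held 41.9% of the T-type sum. Pcp4, a small protein that speeds calcium exchange by calmodulin, had 8949.5 in T-type, 1514 in NR, 1238 in M-type and 968 in S-type, with log2 ratios of 3.21 against S-type (2.40 without J162_16) and 2.56 against NR (1.76 without J162_16). Among T-type cells it ran from 0.640 to 28153. Pcp4l1, its relative, was past 2-fold above NR in T-, S- and M-type (4.66, 3.08 and 3.17), where 1 NR cell, J186_5, held 89.8% of the NR sum. In T-type J162_16 held 84.3% of the sum, and the ratio was 2.25 without it. The S-type ratio was 2.00 without J155_9 and the M-type ratio 1.74 without J172_23. Without J186_5 the ratios were higher, at 7.63, 6.05 and 6.15.

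The CaMK inhibitors and phosphatases had 4 of 4 genes tested. Camk2n1, which encodes an inhibitor protein of CaMKII, had levels of 397 in T-type, 256 in S-type, 164.2 in M-type and 67.3 in NR, so that its log2 ratio against NR was 2.56 in T-type (1.17 without J162_16), 1.93 in S-type (1.49 without J150_3) and 1.29 in M-type (0.35 without J174_13). Over the list 0 genes were higher and 1 lower for T-type versus S-type, and against NR 1 was higher in T-type, 2 in S-type and 1 in M-type, with 0 lower. Ppm1f, a phosphatase that acts on CaMKs, was not past 2-fold in any of the 4, with 337 in M-type, 302 in NR, 196 in S-type and 165.1 in T-type.

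Of the calmodulin-activated enzymes of second-messenger turnover 9 of 11 were tested, and against NR 5 were lower and 1 higher in T-type, 4 and 1 in S-type, and 6 and 2 in M-type. Over all genes tested the shares were 32.4% lower and 28.6% higher in T-type, 22.4% and 25.1% in S-type, and 28.1% and 19.8% in M-type. Adcy1, a calcium-stimulated adenylyl cyclase, had 801.5 in NR against 400 (T-type), 379 (M-type) and 249 (S-type), with log2 ratios of -1.004, -1.08 and -1.69, and without J187_6 these were -0.47, -0.54 and -1.15. Pde1a, a calmodulin-activated phosphodiesterase, was past 2-fold for M-type versus NR (-1.53) but not without J187_6 (-0.23), a cell that held 67.4% of the NR sum.

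Other kinases bound or related to calmodulin (9 of 13 tested) gave 2 higher and 3 lower for T-type versus S-type. Against NR, T-type had 3 higher and 2 lower, S-type 4 and 2, and M-type 3 and 3. Dclk1, a doublecortin-like kinase and the most read of them, had 15407 in S-type, 8186 in NR, 7032 in M-type and 4561 in T-type. Its log2 ratio for T-type versus S-type was -1.76, and it was -0.83 without J154_8. Mylk, the myosin light chain kinase that calmodulin switches on, had 432 in S-type, 163.8 in NR, 19.05 in M-type and 7.28 in T-type. T-type versus S-type gave -5.89, and it stayed at -5.50 or lower when any cell was left out.

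Further downstream, all 12 transcription factors and cofactors listed as CaMK targets were tested, with 4 higher and 3 lower in T-type than in S-type. The counts against NR were 4 and 4 for T-type, 3 and 2 for S-type, and 1 and 3 for M-type. Creb1, the best known of them, was lower in T-type (404) than in S-type (1369), at -1.76 and -0.81 without J154_8. Mef2c had 1601 in NR against 801 (T-type), 490 (M-type) and 406 (S-type), with log2 ratios against NR of -1.98 for S-type and -1.71 for M-type, at most -1.39 whichever cell was left out. Mef2a was higher in T-type (2680.2), but J161_9 held 81.8% of the T-type sum, and without it the log2 ratio fell from 4.57 to 2.37 against S-type and from 7.88 to 5.68 against NR.

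The AMPK subunits, of which CaMKK2 is an activator, had 6 of 7 genes tested, with 1 higher and 3 lower in T-type than in S-type. With NR as the reference, 1 was higher and 2 lower in T-type, 1 higher and 0 lower in S-type, and 3 higher and 0 lower in M-type. The catalytic subunit Prkaa2 was higher in M-type (740.1) than in NR (118), at a log2 ratio of 2.65 and 1.47 without J173_25, while in T-type 95.7% of its sum came from J163_18. Prkag1, a regulatory subunit, kept within 2-fold in all 4 comparisons, at levels of 280 to 370.

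Calmodulin-binding scaffolds had 11 of 12 genes tested, with 2 higher and 5 lower in T-type than in S-type. Relative to NR, 4 were higher and 3 lower in T-type, 3 and 1 in S-type, and 4 and 1 in M-type. Iqgap1, a cytoskeletal scaffold, had 3799 in S-type, 2312 in NR, 2280 in M-type and 779 in T-type, and T-type versus S-type was -2.29 and stayed past 2-fold whichever cell was left out. Strn3 was past 2-fold above S-type in T-type (2.08), but J162_16 held 89.6% of the sum over T-type cells and the ratio was -0.93 without it. Of the calmodulin-like genes Calm4, Calm5 and Calml3 had 0 reads, and Calml4 had reads in 5 cells, mostly in the M-type cell J173_25.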

How the data were processed

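RNA of 22 single astrocytes was measured by sequencing after 2 rounds of antisense RNA amplification. The authors trimmed the reads, aligned them with STAR to GRCm38 and deposited raw counts of uniquely aligned exonic reads per gene symbol, counted with VERSE according to the paper and with HTSeq according to the submitters' processing notes. Versions and the strand setting are not given in the sources used here. The table held no columns of the authors' own comparisons. Without molecular identifiers a count gives amplified reads, not molecules, and intervals and floors cover counting error only.

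Groups came from the response characteristic in the labels of each sample. Size factors were medians of ratios over the genes read in all cells, and a level was the mean over cells. A type with 0 reads took a floor of 3 reads over the type. Comparisons used genes read in at least 5 cells. Cells of a type are not replicates of independent animals as far as the labels say, so no test was run where the authors' Wald test was. Total counts of 2937786 to 22131076 per cell set the precision. The 9 genes, the pathway lists and the marker lists were chosen with earlier results of these data known. Of each list at most 3 genes are named, those with the most normalized counts, and other calmodulin and kinase genes of the family are not reported here, which leaves 1 gene out of the list counts. Genes named as most like Calm2 and the kinase with the highest mean normalized count, Camk2d, are among the 3 with the highest Spearman rho of the genes read in all cells.

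Positions, transcript lengths and coding sequences came from GENCODE vM21, on the same build. Proteins were translated with Biopython 1.88. Other tools were Python 3.11.15, NumPy 2.4.6, pandas 2.3.3, SciPy 1.17.1 and matplotlib 3.10.9. The ratio step was tested on simulated data. Alternatives were TMM factors (edgeR 4.0.16, R 4.3.3), mean and pooled CPM, thinning to 2937786 reads, a pseudocount of 1, a mean level of at least 10, no filter, the median over cells, and leaving out cells. Of these, only leaving out a single cell was applied to the named genes of the pathway lists. The calcium recordings and the collection time of a cell were not used here.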

Additional observations from a re-analysis of the deposited data

Results flagged for a closer look

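In 10 of 40 groups of cells examined (the 9 genes and the Calm2 share in each of the 4 types), Dixon's test at the 95% level singled out the highest or lowest cell, where chance alone flags about 1 in 20 groups of normally distributed values. Among all genes tested the same rule singled out a cell in 38.8% of the groups, against 27.8% for the 9 genes, so such cells are common in these data. All 10 were the highest cell of their type. Of the S-type cells, J150_3 stood above the others for Calm2 (59487.4 normalized counts) and Camkk2 (3359.2), and J151_5 for Camk2d (5841.1). Of the T-type cells, J161_9 stood out for Camk1 (279) and Camkk1 (57.7), J162_16 for Camk2d (5987.5, with a size factor of 0.276 and 131 CPM), J163_18 for Camk2g (2973) and J166_25 for Camk2b (160.8). Of the M-type cells, J173_25 stood out for Camk2b (372) and J176_25 for Camk1 (29.8). No NR cell was singled out for any of the 9 genes. J150_3 and J151_5 had the highest sums of G2/M markers of all cells (9744 and 4681 CPM), whereas J162_16 and J163_18 had 27.4 and 17.7 CPM. J163_18 was the cell with the fewest reads, 2937786. The part of these features in the high values was not tested.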

How the results depend on the processing

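No paired analysis was possible because no result comes from a test. Replicate numbers here follow accession order only, and the labels do not say what the number at the end of a cell's name marks. The number of the 9 genes past 2-fold was 3 for T-type versus S-type and, against NR, 3 for T-type, 3 for S-type and 2 for M-type. With the median over cells and a pseudocount of 1 it was 5 for T-type versus S-type and 5 for M-type versus NR, and for the latter it was 4 with mean CPM (1 higher, 3 lower, against 1 and 1) and 4 after thinning. T-type versus NR gave 4 with mean or pooled CPM, Camk1d being added. Under mean CPM the median of all genes of T-type fell from -0.07 to -0.44 against S-type and from -0.05 to -0.45 against NR. The median over cells also turned 1 direction, Camk2b in S-type versus NR, to a log2 ratio of 0.32, and the cause of these changes was not tested. With each cell left out in turn the counts ranged from 2 to 4, 1 to 3, 3 to 4 and 2 to 5. T-type versus NR gave 1 without J162_16, J165_23 or J166_25, and M-type versus NR gave 4 without J182_2 or J187_6 and 5 without J186_5. Camk2d led in 11 to 12 cells and the median Calm2 share was 87.2% to 89.9%. After both J150_3 and J151_5 were left out the log2 ratio of Calm2 in S-type versus NR was 0.54. The Camkk1 ratio of T-type versus NR stayed past 2-fold in 10 of 20 alternatives. The ratios past 2-fold, recomputed with each cell left out in turn, gave 122 values that share cells. All 122 kept their direction and 106 stayed past 2-fold. Under other settings the same ratios gave 100 values, of which 98 kept their direction and 93 stayed past 2-fold. Ratios inside 2-fold kept their direction less often, in 241 of 274 values without 1 cell, and less often under other settings too. The sets were split by the size of these same ratios, so the split itself favours this difference and nothing is concluded from it. Without division by length Camk2d led in 17 cells. Amplified reads of single cells limit all values of Camk1, Camk2b and Camkk1, which had few reads in some types.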
